A study of Mus musculus with 4 samples.

Results

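The genes described here mark the identity of the supporting cells of the organ of Corti. They are Sox2, Sox9, Prox1, Fgfr3, Lgr5, Gjb2, Gjb6, Slc1a3, Cdkn1b and Gja1. Every non-control probe that carried one of these 10 names in the array files was taken, which gave 14 of the 39429 non-control probes. These stand for 10 of 30028 gene names or identifiers on the array. The question was whether the signals of these genes in the cochlea held after the outer hair cells (OHCs) were lost.

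Total RNA of whole cochleae came from mice of the B6J background at 5 weeks of age, and each group pooled 4 females and 4 males. OHC-TRECK mice (also called Prestin-hDTR) carry a transgene in which the promoter of prestin (Slc26a5) drives a human diphtheria toxin (DT) receptor, and they descend from a single transgenic line. The 4 groups were untreated wild-type, DT-treated wild-type, untreated OHC-TRECK and DT-treated OHC-TRECK, and the treated mice received 50 μg/kg of DT 7 days before dissection. Each group was measured on 1 Agilent array with 1 colour (Cy3), and the 4 arrays lay on 1 slide. With 1 array per group, no difference has a replicate check. No test across arrays was possible, and the values describe these pools only.

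Supporting cells surround the hair cells. They hold them in place, pass potassium and small molecules to each other through gap junctions, and take up the glutamate that hair cells release. They include the Deiters' cells and pillar cells around the OHCs and the inner phalangeal and border cells around the inner hair cells. In the mature mammalian cochlea they do not divide, and lost hair cells are not replaced. Several of the genes measured here are shared with other cells. Sox9 is also a regulator of cartilage, Gjb2 and Gjb6 are also present in fibrocytes of the lateral wall, Slc1a3 is also present in satellite glia and fibrocytes, and Cdkn1b is present in many resting cells. Whole-cochlea RNA therefore mixes supporting cells with all of these, and in such a sample fewer cells of a type and less RNA per cell cannot be told apart.

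Positions are given as the array annotation has them, in the mouse build mm9. Of the 10 genes, 7 had 1 probe and 3 had more. The probes are 60 bases long and are given 5′ to 3′. Those of the 3 genes with several probes are shown because the probes of a gene did not read alike, together with that of Sox9, whose signal moved most against untreated wild-type. One Fgfr3 probe spans 235 bases of the genome on chromosome 5, more than its own length, so that annotation places it across an intron, and it is shown whole. For the others, 30 bases are shown, the last 30 for the brightest Fgfr3 probe and the first 30 for the rest. Capitals mark the hexamer AATAAA, the usual signal for the poly(A) tail, which was searched on the strand of the probe. It was found in 1 of the 14 probes and in 12.6% of all non-control probes.
Sox9: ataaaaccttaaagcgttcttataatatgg
Fgfr3 probe 1: ttactttccaaaaAATAAAgagataactgg
Fgfr3 probe 2: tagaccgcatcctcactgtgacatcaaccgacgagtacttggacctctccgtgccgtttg
Fgfr3 probe 3: atgtgaactgctatggtacccaaagggagg
Lgr5 probe 1: catgtaaatacgtagtgcttgtaaatagat
Lgr5 probe 2: acctctagtgcttatatagaaacttgtgtg
Cdkn1b probe 1: gtgcttaaaaggttgcatactgagccaagt
Cdkn1b probe 2: attagccaagcaaccataagactctagtca

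Signals are given as log2 of the intensity minus log2 of the 75th percentile of that array, so that 0 is the level of the probe at the 75th percentile. A probe counted as measured on an array where the scanner software marked it as well above background. On every array, 12 of the 14 probes were well above background, and these cover all 10 genes. The other 2, Fgfr3 probe 3 and Lgr5 probe 2, were well above background on no array. Their intensities lay between 10.9 and 21.9 for Fgfr3 probe 3 and between 7.98 and 16.1 for Lgr5 probe 2, and they entered no comparison. Both were designed on Ensembl transcripts, whereas the brighter probes of these genes were designed on RefSeq transcripts.

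No probe of these genes differed by 2-fold in any comparison. In DT-treated OHC-TRECK, 0 of 12 probes passed 2-fold against untreated OHC-TRECK, where 3.84% of 28082 probes on the array did. The count was also 0 of 12 against DT-treated wild-type (3.24% of 25394 probes) and against untreated wild-type (3.91% of 26810 probes). Between the controls, 0 of 12 passed for DT-treated against untreated wild-type (2.55% of 26727 probes) and for untreated OHC-TRECK against untreated wild-type (3.33% of 28327 probes). A share of that size among 12 probes is less than 1 probe, so a count of 0 is near the background of the array.

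At the lower threshold of 1.5-fold, 3 probes stood out, and only against untreated wild-type. These were Sox9 and Lgr5 probe 1, which were higher in DT-treated OHC-TRECK, and Prox1, which was lower, beside 10.4% of all probes compared. Against untreated OHC-TRECK the count was 0 of 12 (9.81% of all probes), and against DT-treated wild-type it was 0 of 12 (8.35%). It was also 0 of 12 for DT in wild-type mice (5.81%) and for the untreated genotypes (6.74%).

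The range over the 4 arrays separated steady from less steady genes. The median range of the 12 probes was 0.28 on the log2 scale, from 0.12 for Fgfr3 probe 1 to 0.65 for Sox9. Among all 23688 probes measured on every array, the median range was 0.23. DT-treated OHC-TRECK lay above all 3 other arrays for 6 of the 12 probes (Sox9, both measured Fgfr3 probes, Lgr5 probe 1, Gjb2 and Gjb6), as did 32.9% of all probes. It lay below them for 2 (Prox1 and Gja1), as did 35.2% of all probes, and within their range for the other 4.

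**Figure D1:**
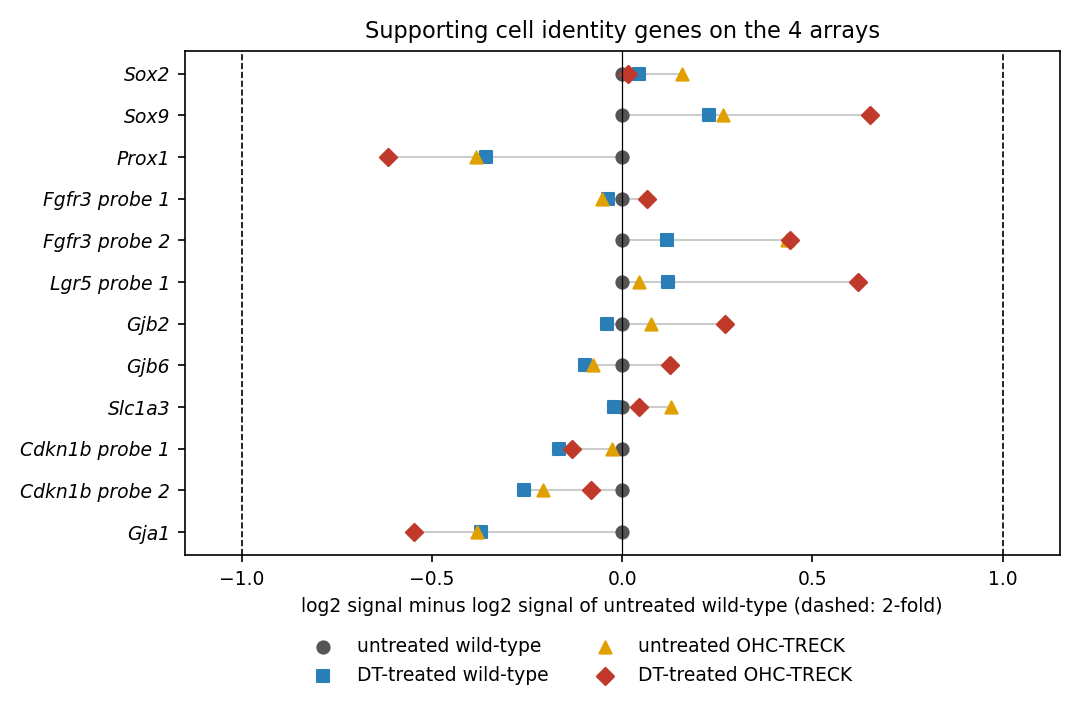
Log2 signal of each of the 12 measured probes on the 4 arrays, as the difference from untreated wild-type, with 1 point per array and a grey line over the range. Dashed lines mark 2-fold, which no point reaches, and Sox9, Prox1 and Lgr5 probe 1 have the widest ranges.

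The error of a spot could be measured from probes printed at several positions. Over 283 such probes, the SD of the log2 ratio between positions had a median of 0.061 for DT-treated against untreated OHC-TRECK, 0.055 against DT-treated wild-type and 0.070 against untreated wild-type. The 95th percentile of this SD was 0.21, 0.22 and 0.21, respectively. It holds spot error alone, without any variation among mice or labelling reactions. Among all probes measured on both arrays, the log2 ratios had an SD of 0.35, 0.32 and 0.35 in these comparisons, and of 0.26 for DT in wild-type mice and 0.28 for the untreated genotypes.

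Of the transcription factors, Sox2 was steady, Sox9 was higher and Prox1 was lower in DT-treated OHC-TRECK, with changes in the controls for the latter pair. Sox2 is needed for the sensory precursors of the cochlea and stays on in supporting cells, where it also represses hair cell fate. Its probe (A_52_P307739, chromosome 3, 34550773 to 34550832) read -1.69 and -1.65 in wild-type without and with DT, and -1.53 and -1.68 in OHC-TRECK without and with DT. The value after OHC loss lay inside the range of the controls, and all 4 arrays were within 1.12-fold.

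Sox9, a SOX factor of supporting cells, otic progenitors and cartilage, was measured by 10 spots per array (A_52_P214630, chromosome 11, 112648809 to 112648868). The mean over spots was 1.22 ± 0.079 without and 1.44 ± 0.10 with DT in wild-type, and 1.48 ± 0.11 without and 1.87 ± 0.10 with DT in OHC-TRECK (SD, n = 10 spots of 1 array). The lowest spot in DT-treated OHC-TRECK, 1.76, lay above the highest spot of any control array, 1.69, so the spots did not overlap. Spots of 1 array hold spot error alone, and 32.9% of all probes measured on every array lay above the 3 controls. How many of the other probes with repeated spots were separated in this way was not counted. The ratio position by position was 0.39 ± 0.040 against untreated OHC-TRECK, with every position between 0.32 and 0.44 (SD, n = 10 spots). It was 0.43 ± 0.033 against DT-treated wild-type and 0.65 ± 0.085 against untreated wild-type.

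These are 1.31-fold, 1.34-fold and 1.57-fold, and among all probes measured on both arrays 7.88%, 4.84% and 2.73% were at least as far up. The controls differed too. Against untreated wild-type, Sox9 was 0.23 higher with DT and 0.27 higher with the transgene alone, so the difference from untreated wild-type was the largest of the 3 because that control was the lowest.

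Prox1, a homeobox factor of Deiters' and pillar cells that in the adult also marks lymphatic vessels and some neurons, read -4.09 and -4.44 in wild-type without and with DT, and -4.47 and -4.70 in OHC-TRECK without and with DT (A_55_P2048751, chromosome 1, 191945785 to 191945844). Untreated wild-type stood highest and the other 3 arrays were closer together. The log2 ratio of DT-treated OHC-TRECK was -0.23 against untreated OHC-TRECK, -0.26 against DT-treated wild-type and -0.61 against untreated wild-type. The probe was dim, with intensities between 120.0 and 161, and with the normexp background correction these ratios were -0.01, -0.04 and -0.34. Against untreated wild-type Prox1 was past 1.5-fold in the main processing but not with that correction, with quantile normalization (-0.50) or with scaling to the median (-0.55).

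**Figure D2:**
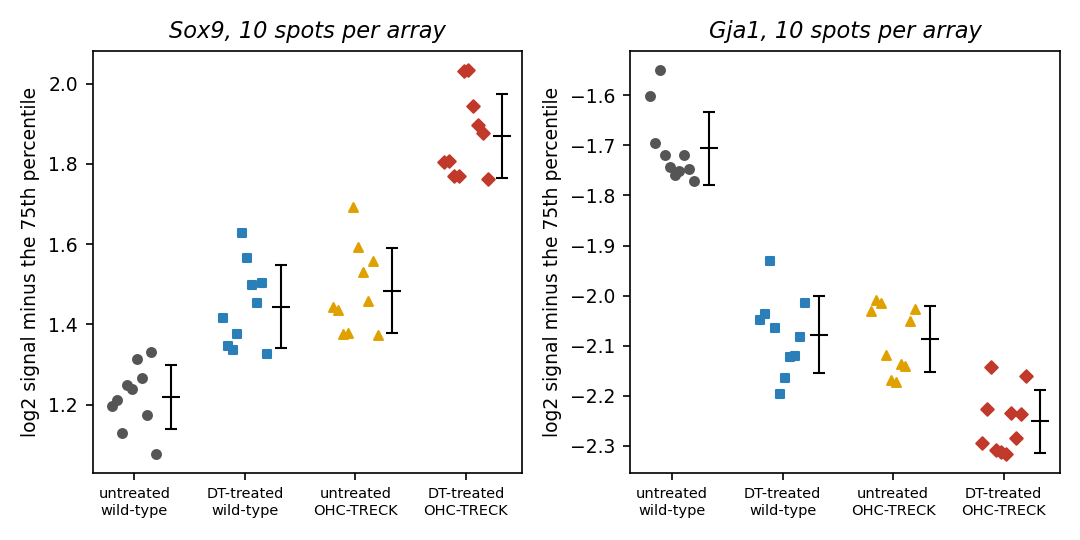
Log2 signal of the 10 spots of Sox9 and of Gja1 on each array, with black bars for the mean ± SD over spots. For Sox9 the spots of DT-treated OHC-TRECK lie above all control spots, and for Gja1 the spots of untreated wild-type lie above those of the other 3 arrays. The bars hold spot error alone.

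Of the receptors, Fgfr3 was steady by its brightest probe and Lgr5 was higher in DT-treated OHC-TRECK than in each control. Fgfr3 encodes a fibroblast growth factor receptor of Deiters' and pillar cells that is needed for pillar cells to form. Probe 1 (A_55_P1996578, chromosome 5, 34079649 to 34079708) read 1.82 without and 1.78 with DT in wild-type, and 1.77 without and 1.88 with DT in OHC-TRECK. The widest difference between any arrays was 1.09-fold, the narrowest range of the 12 probes.

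Probe 2, which crosses an intron (A_65_P06147, chromosome 5, 34077856 to 34078090), read -2.20 and -2.08 in wild-type without and with DT, and -1.77 and -1.76 in OHC-TRECK without and with DT. Here the 2 OHC-TRECK arrays were alike and both were above the wild-type arrays. The log2 ratio after OHC loss was 0.01 against untreated OHC-TRECK, and that of untreated OHC-TRECK against untreated wild-type was 0.43, where 1.93% of all probes were at least as far up. The probes of Fgfr3 therefore disagreed on the difference between genotypes, which was -0.05 for probe 1, and not on the comparison of DT-treated with untreated OHC-TRECK. Against DT-treated and untreated wild-type, DT-treated OHC-TRECK was 0.32 and 0.44 higher by probe 2, and 0.10 and 0.07 higher by probe 1.

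Lgr5, a receptor for R-spondins and a target of Wnt signalling that marks a subset of supporting cells that includes Deiters' cells, read 0.86 without and 0.98 with DT in wild-type, and 0.91 without and 1.48 with DT in OHC-TRECK by probe 1 (A_55_P2126192, chromosome 10, 114887403 to 114887462). The controls lay within 0.12 of each other and DT-treated OHC-TRECK stood apart from all of them. The log2 ratio was 0.58 against untreated OHC-TRECK (1.49-fold), 0.50 against DT-treated wild-type (1.41-fold) and 0.62 against untreated wild-type (1.54-fold). Among all probes measured on both arrays, 4.51%, 3.41% and 3.11% were at least as far up. Lgr5 was thus the member with the largest difference against untreated OHC-TRECK and against DT-treated wild-type, and it rests on 1 spot per array. The silent probe 2 lies 13283 bases away from probe 1.

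**Figure D3:**
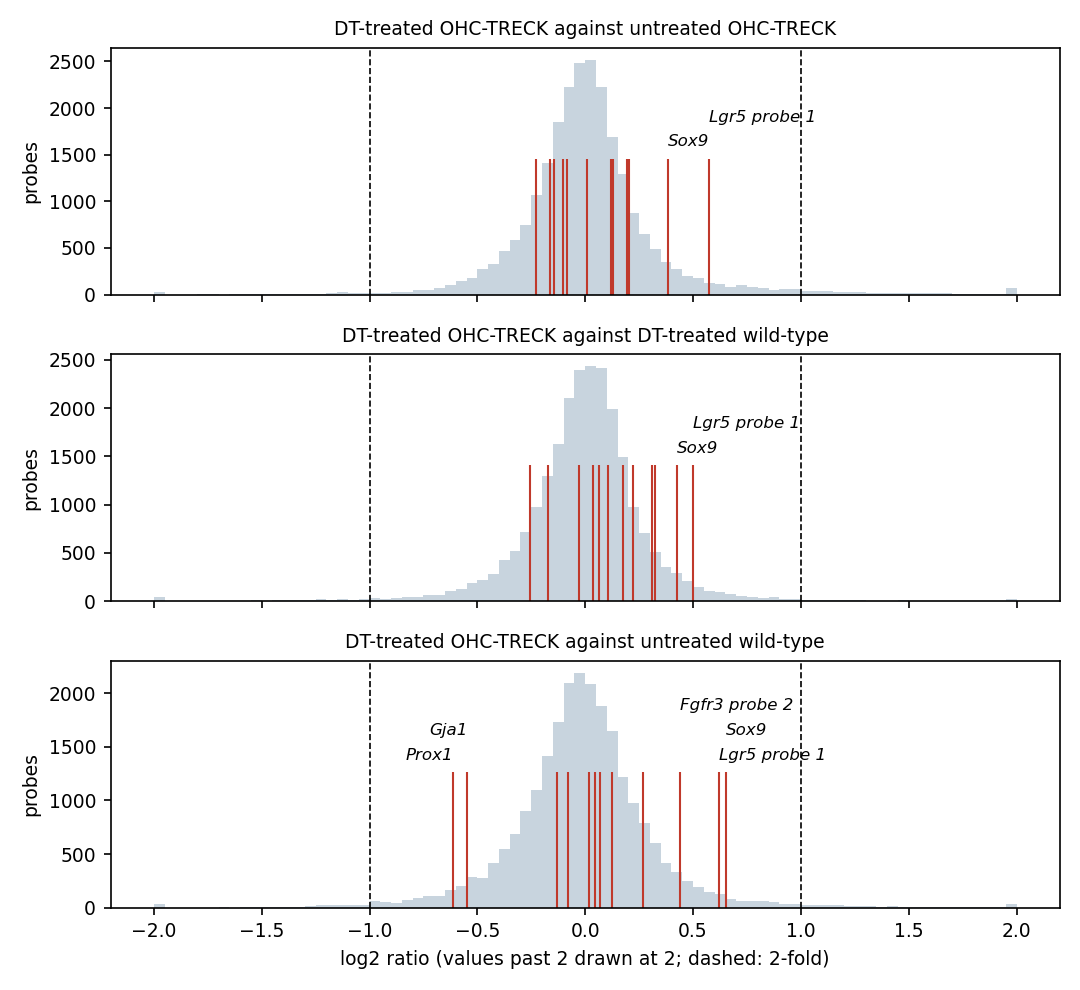
Distribution of the log2 ratio of DT-treated OHC-TRECK over all probes well above background on both arrays (grey bars, number of probes), for each of the 3 control groups, with red lines for the 12 measured probes. All red lines fall inside the dashed 2-fold lines, and those past 0.35 in size are named.

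Of the gap junction genes, Gjb2 and Gjb6 were slightly higher and Gja1 slightly lower in DT-treated OHC-TRECK. Gjb2 and Gjb6 encode connexin 26 and connexin 30, which form the channels between supporting cells, and loss of connexin 26 causes deafness. Gjb2 (A_52_P382886, chromosome 14, 57717629 to 57717688) read 5.68 and 5.64 in wild-type without and with DT, and 5.76 and 5.95 in OHC-TRECK without and with DT. The last was 1.14-fold to 1.24-fold above the others.

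Gjb6 (A_52_P482251, chromosome 14, 57742226 to 57742285) read 5.78 without and 5.68 with DT in wild-type, and 5.70 without and 5.90 with DT in OHC-TRECK. It was 1.09-fold to 1.17-fold above the others, with the controls within 0.10 of each other. The Gjb2 and Gjb6 probes share no identical run longer than 4 bases. The local background of the Gjb2 spot on 2 arrays (DT-treated wild-type and untreated OHC-TRECK) and of the Gjb6 spot on 1 (untreated OHC-TRECK) was marked as an outlier by the scanner software, and these spots were kept.

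Gja1, which encodes connexin 43, a gap junction protein of bone, glia, vessels and developing supporting cells, was also measured by 10 spots (A_52_P174915, chromosome 10, 56109814 to 56109873). The mean over spots was -1.71 ± 0.073 and -2.08 ± 0.077 in wild-type without and with DT, and -2.09 ± 0.066 and -2.25 ± 0.063 in OHC-TRECK without and with DT (SD, n = 10 spots of 1 array). Every spot of untreated wild-type (lowest -1.77) lay above every spot of the other arrays (highest -1.93), while the spots of DT-treated OHC-TRECK overlapped those of DT-treated wild-type and untreated OHC-TRECK. Here too, the spots hold spot error alone, and such separation was not counted for other probes. The ratio by position was -0.17 ± 0.049 against untreated OHC-TRECK, -0.17 ± 0.048 against DT-treated wild-type and -0.55 ± 0.081 against untreated wild-type (SD, n = 10 spots). DT-treated wild-type was itself 0.37 below untreated wild-type, and untreated OHC-TRECK 0.38 below it.

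For the glutamate transporter and the cell cycle inhibitor, DT-treated OHC-TRECK lay within the range of the controls. Slc1a3 encodes GLAST, which takes up glutamate around the inner hair cells and in glia. Its probe (A_51_P268697, chromosome 15, 8584236 to 8584295) read 1.46 without and 1.44 with DT in wild-type, and 1.59 without and 1.51 with DT in OHC-TRECK. All 4 arrays were within 1.11-fold of each other.

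Cdkn1b encodes p27, the inhibitor of cyclin-dependent kinases that keeps supporting cells out of the cell cycle. Probe 1 (A_55_P2026562, chromosome 6, 134875424 to 134875483) read 3.66 and 3.50 in wild-type without and with DT, and 3.64 and 3.53 in OHC-TRECK without and with DT. Probe 2 (A_52_P673863, chromosome 6, 134873606 to 134873665), at 1818 bases from probe 1, read -1.69, -1.94, -1.89 and -1.77 in the same order. The range over the 4 arrays was 0.17 for probe 1 and 0.26 for probe 2, and against untreated OHC-TRECK the probes differed in sign, at -0.11 for probe 1 and 0.13 for probe 2.

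Taking the brightest probe of each gene, the median log2 ratio of the 10 genes in DT-treated OHC-TRECK was 0.02 against untreated OHC-TRECK, 0.09 against DT-treated wild-type and 0.06 against untreated wild-type. The genes ranged from -0.23 (Prox1) to 0.58 (Lgr5) against untreated OHC-TRECK, and 5 of 10 were above 0, as were 50.6% of all probes. Against DT-treated wild-type and against untreated wild-type, 7 of 10 were above 0, beside 51.1% and 45.6% of all probes. The medians of all probes compared were 0.00, 0.01 and -0.03. These 3 comparisons share the DT-treated OHC-TRECK array and are not independent of each other. For DT in wild-type mice the median of the 10 genes was -0.04, and for the untreated genotypes it was 0.01.

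The effect of DT was set side by side in the 2 genotypes. Lgr5 was 0.58 higher with DT in OHC-TRECK and 0.12 higher with DT in wild-type, a difference of 0.46, the widest among the 12 probes. Cdkn1b probe 2 followed with a difference of 0.39, whereas the brighter Cdkn1b probe 1 gave 0.06. Gjb6 and Gjb2 gave 0.30 and 0.23. Over all 23688 probes well above background on all arrays, the median of this difference was 0.02 and its SD 0.37. For Prox1 and Gja1, DT went with a lower signal in both genotypes, by 0.23 and 0.17 in OHC-TRECK and by 0.36 and 0.37 in wild-type.

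Of the other 31 supporting cell genes listed for comparison, 1 passed 2-fold against each control, and this was Lgr6. It encodes a receptor of the same family as Lgr5 and is known from pillar cells. Its log2 signal was -4.76 and -4.79 in wild-type without and with DT, and -4.90 and -2.76 in OHC-TRECK without and with DT. This is 4.42-fold above untreated OHC-TRECK, 4.08-fold above DT-treated wild-type and 4.00-fold above untreated wild-type, with the controls within 0.14 of each other. The probe was well above background on every array, but its control signals were dimmer than any of Prox1 (-4.09 to -4.70). The alternative settings were read for the members only, so how far the Lgr6 ratios depend on background correction was not tested. On the whole array, 1.34% of 25061 probes passed 2-fold the same way against all 3 controls.

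S100a6, a calcium-binding protein, was 1.67-fold, 1.96-fold and 1.63-fold above the controls, in the order untreated OHC-TRECK, DT-treated wild-type and untreated wild-type. Npy, a neuropeptide, was 1.60-fold above untreated OHC-TRECK and 1.52-fold below DT-treated wild-type, since the controls differed. At 1.5-fold against DT-treated wild-type, 5 of 31 were higher and 1, Npy, was lower (8.35% of all probes passed in either direction). The 5 were Lgr6 and S100a6 together with Fabp3 (1.58-fold), Kcnj16 (1.56-fold) and Epcam (1.64-fold), the last 3 named after their values were seen. Against untreated OHC-TRECK, 3 of 31 were higher and 0 lower (9.81% of all probes). Against untreated wild-type, 4 were higher and 1 was lower (10.4%). The lower gene there was Aqp4, named in the same way. It was 1.41-fold, 1.22-fold and 1.91-fold below the controls, in the order given for S100a6. The median log2 ratio of the 31 genes was 0.18, 0.19 and 0.32 against the 3 controls, with 24, 25 and 25 of them above 0, beside 50.6%, 51.1% and 45.6% of all probes.

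Most relatives and partners of the members stayed within 2-fold of the controls. In the list for Lgr5 (receptors, R-spondins, the ligases they act on, and Axin2), 8 of 9 genes were measured. Lgr6 was 1 of the 2 that reached 2-fold against any control in DT-treated OHC-TRECK. The other was Rspo2, an R-spondin ligand, which was 1.75-fold, 1.80-fold and 2.01-fold above the controls in the same order. Rspo1 was 1.32-fold, 1.14-fold and 1.43-fold below them. The median of the list was 0.06, 0.01 and -0.03.

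Of the 17 genes of the FGF receptor list, 15 were measured, and 0 passed 2-fold against untreated OHC-TRECK. Dusp6, a phosphatase induced by FGF signalling, was 1.39-fold, 1.37-fold and 1.42-fold above the controls. Spry4, an FGF antagonist, was 1.54-fold below untreated OHC-TRECK and 3.79-fold below DT-treated wild-type, which stood apart from the other groups for this probe. Fgf10, a ligand, was 1.38-fold, 1.23-fold and 1.30-fold below the controls.

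Of the other SOX genes, 15 of 17 were measured, and 0 passed 2-fold against untreated OHC-TRECK. Sox4 was 1.49-fold above and Sox8 was 1.33-fold below that control. Sox6, a partner of Sox9 in cartilage, was 1.54-fold above untreated OHC-TRECK and 3.21-fold and 4.42-fold above DT-treated and untreated wild-type. Its signal already differed by 1.53 on the log2 scale between the untreated genotypes.

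Of the 20 other connexins and pannexins, 12 were measured. Against untreated OHC-TRECK 0 passed 2-fold, and Gjd2, the connexin of electrical synapses between neurons, was 1.74-fold lower. Panx2 was 1.45-fold lower and Panx3 was 1.65-fold higher.

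The other SLC1 transporters and glutamine synthetase gave 0 of 7 past 2-fold against each control, with Slc1a1 1.28-fold lower, Slc1a7 1.21-fold higher and Slc1a6 1.14-fold lower than in untreated OHC-TRECK. Of the other CDK inhibitors and genes of p27 turnover, 8 of 9 were measured. Cdkn3, a phosphatase of cycling cells, was 2.98-fold above untreated OHC-TRECK, 1.05-fold below DT-treated wild-type and 2.12-fold above untreated wild-type, and DT-treated wild-type was itself 2.22-fold above untreated wild-type. Its signals of -6.227 in untreated OHC-TRECK and -5.735 in untreated wild-type were near the lowest signals well above background on those arrays, -6.392 and -5.927. Cdkn1a and Cks1b were 1.21-fold and 1.22-fold above untreated OHC-TRECK.

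**Figure D4:**
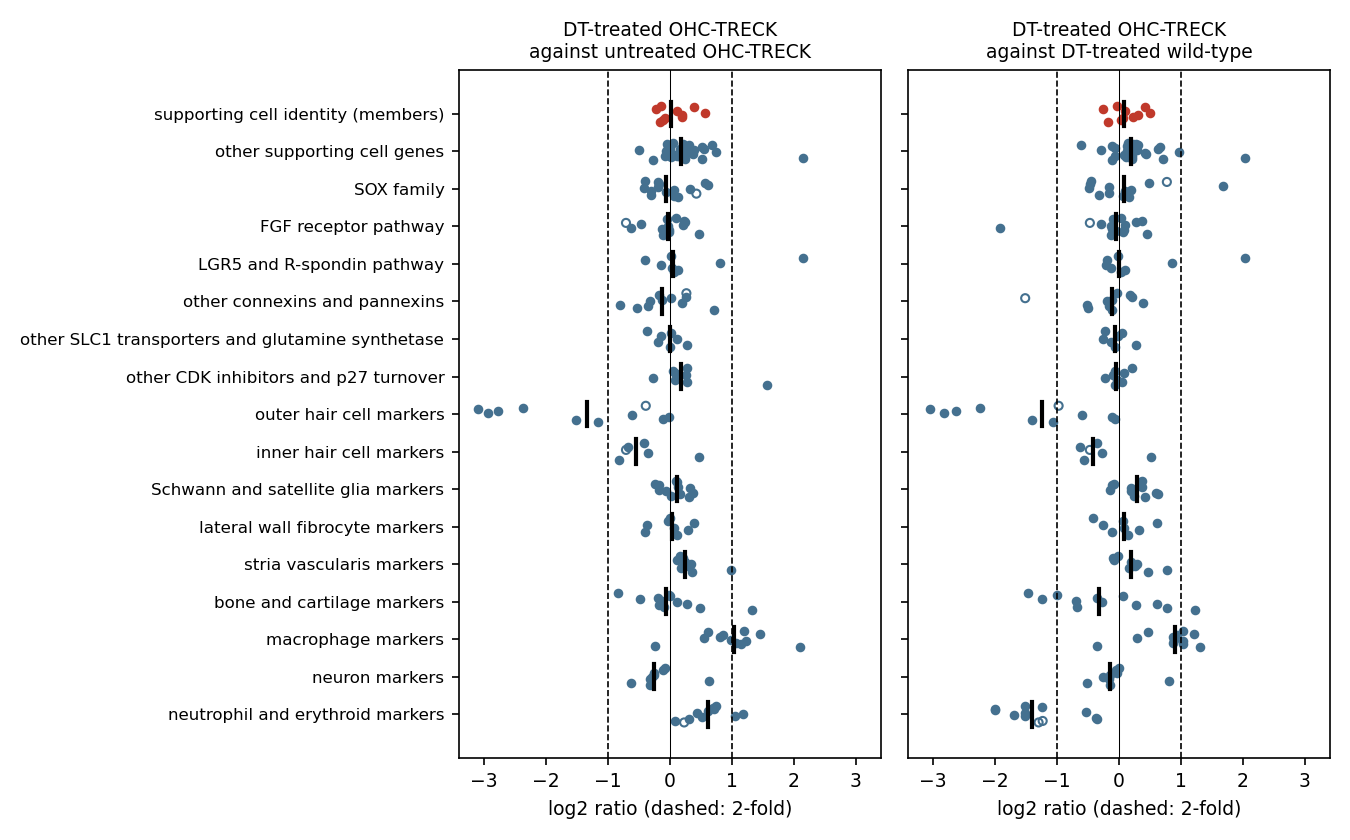
Log2 ratio of DT-treated OHC-TRECK against untreated OHC-TRECK (left) and DT-treated wild-type (right) for each gene of the lists, 1 point per gene by its brightest probe, with black bars for medians, open points for lower bounds and dashed lines at 2-fold. The supporting cell identity genes (red) stay within 2-fold, while the median of the outer hair cell markers lies to the left and that of the macrophage markers to the right.

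Markers of other cells moved on the same arrays. Of 10 outer hair cell markers, 6 passed 2-fold downwards against every control, beside 1.34% of 25061 probes in either direction. Ocm and Strc were 5.18-fold and 8.57-fold below untreated OHC-TRECK, while Ikzf2 and Lbh, named after their values were seen, were 1.01-fold and 1.075-fold below it. Slc26a5 was not well above background in DT-treated OHC-TRECK and at least 1.31-fold below untreated OHC-TRECK. Of 12 macrophage markers, 6 passed 2-fold upwards against untreated OHC-TRECK, 5 against DT-treated wild-type and 4 against untreated wild-type, beside 3.84%, 3.24% and 3.91% of all probes in either direction. The 4 that passed against all controls, beside the same 1.34% of probes, were Lyz2, Cd68, C1qb and Adgre1. Of these, Lyz2 was 4.28-fold and Adgre1 2.28-fold above untreated OHC-TRECK, while Itgam, named after its values were seen, was 1.18-fold below it. Their summed signal was 34.5 against 21.8 to 27.03 in the controls, in multiples of the 75th percentile.

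Beside Sox9, some cartilage genes were higher and others were not. Matn1, a cartilage matrix protein, was 2.52-fold, 2.33-fold and 2.64-fold above the controls, and Col9a1 was 1.40-fold, 1.71-fold and 1.69-fold above them. Col2a1, the main collagen of cartilage and named after its values were seen, was 1.21-fold, 1.53-fold and 1.32-fold above them. Acan and Comp, named in the same way, were 1.13-fold and 1.07-fold below untreated OHC-TRECK. Acan was 1.21-fold above DT-treated and above untreated wild-type, whereas Comp was 1.59-fold and 1.55-fold below them. The bone gene Bglap was 1.78-fold, 2.78-fold and 2.14-fold below. Over the whole list of bone and cartilage markers, 12 of 13 were measured, all on every array, with 5, 5 and 4 of the 12 above 0, and the summed signal was 32.6, 35.7, 30.2 and 29.9 in wild-type without DT, wild-type with DT, OHC-TRECK without DT and OHC-TRECK with DT. This sum adds bone genes to cartilage genes and does not give the cartilage genes alone. The part of these tissues in the Sox9 signal was not tested.

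Beside Gjb2 and Gjb6, which fibrocytes also carry, the 8 lateral wall fibrocyte markers had a summed signal of 348, 379, 357 and 353 in the same order of arrays, and the 9 stria vascularis markers one of 181, 184, 181 and 217. None of the former passed 2-fold against any control, a count of 0 of 8. Of the latter, 1 of 9 did, Tyr, an enzyme of melanin synthesis in intermediate cells, which was 1.99-fold, 1.71-fold and 2.12-fold above the controls, and all 9 were above 0 against untreated OHC-TRECK. All of both lists were well above background on every array. The part of these tissues in the connexin signals was not tested. Of the 6 inner hair cell markers, 0 passed 2-fold against any control. For all of these lists, the share of all probes past 2-fold was 3.84%, 3.24% and 3.91% against the 3 controls. Against untreated OHC-TRECK, 3 of the 6 inner hair cell markers were past 1.5-fold lower, beside 9.81% of all probes in either direction. Only 1 of the 6 was above 0, and their median log2 ratio was -0.544, -0.415 and -0.51 against the 3 controls.

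Beside Gja1 and Prox1, whose signals were highest in untreated wild-type, the 12 glial markers had a summed signal of 209, 147, 172 and 175 in the same order of arrays. The 9 neuron markers had one of 168, 142, 155 and 134. All of these markers were well above background on every array, and their part in the Gja1 and Prox1 signals was not tested. The 12 neutrophil and erythroid markers had a summed signal of 42.0, 66.3, 19.0 and 28.3, highest in DT-treated wild-type, where Npy and Spry4 were also highest. Their part in these 2 genes was not tested either.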

How the data were processed

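Cochlear RNA of 4 groups was hybridised to 1 array per group. Per the labels, the scans were read with Agilent Feature Extraction 11.5.1.1, and the authors deposited the intensity of each spot, background-subtracted and detrended, with no scaling between arrays. A deposited table of scaled signal held the same values divided by 1 constant per array and served as an alternative. Control and outlier spots were left out, spots of a probe were averaged, and log2 of each array's 75th percentile was subtracted, as in the methods of the study. A comparison took each probe that the software marked as well above background on 1 or both of its arrays. A dim signal was raised to the lowest signal well above background on that array, and the fold is then a lower bound. A call is a change of 2-fold or more. Between 62.2% and 70.6% of probes were well above background, 149 to 228 spots per array were outliers and 0 were saturated. The number of arrays limits the precision.

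The members, the 17 gene lists and the comparisons were chosen with earlier results of these data known. The named genes are all members with every probe, and genes of the other lists that met a rule. The rule was a change past 2-fold against all 3 controls, or 1 of the 3 largest changes against untreated OHC-TRECK among genes well above background on both arrays. For OHCs, Slc26a5, Ocm and Strc were named. Not every gene that met the rule is named. The inner hair cell, fibrocyte, glial, neuron, and neutrophil and erythroid lists are given by list values only. Others are marked where named. Of the lists, 1 gene was matched by an older symbol. A gene was read by its brightest probe. The code for the calls was run on simulated arrays with large changes at bright probes and small noise. That run says nothing about calls at dim probes or about variation among mice. Alternatives were 10 planned settings of scaling, background (normexp with an offset of 50, limma 3.58.1 in R 4.3.3), filter, threshold and probe choice. Python 3.11.15 with numpy 2.4.6 and pandas 2.3.3 was used.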

Additional observations from a re-analysis of the deposited data

Results flagged for a closer look

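For 5 of the 12 measured probes the signal went one way with DT in OHC-TRECK and the other way in wild-type, as it did for 44.5% of all probes well above background on every array. The difference between the 2 changes, OHC-TRECK minus wild-type on the log2 scale, was -0.19 for Sox2, 0.16 for Fgfr3 probe 1, 0.23 for Gjb2, 0.30 for Gjb6 and 0.39 for Cdkn1b probe 2. The brighter Cdkn1b probe 1 went the same way in both genotypes, with a difference of 0.06. For Gjb2 and Gjb6 the opposite signs depended on the scaling. With quantile normalization their DT ratios in wild-type were 0.127 and 0.076, the same sign as in OHC-TRECK. With 1 array per group the difference was not tested.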

How the results depend on the processing

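No paired analysis was possible because each group has 1 array. Leaving out a replicate was not possible for the same reason. The count of probes past 2-fold was 0 in all 5 comparisons under every scaling, background and filter setting tried, and at 1.5-fold it was 3 against untreated wild-type with the main processing. Of these, Prox1 fell short of 1.5-fold with normexp (-0.34), quantile normalization (-0.50) and scaling to the median (-0.55), whereas Sox9 (0.64 to 0.72) and Lgr5 probe 1 (0.61 to 0.68) did not under any setting. The median of the member genes moved by more than the spread of spots in 3 of 50 cases. It was 0.078 for the untreated genotypes with scaling to the median, 0.16 against DT-treated wild-type with the mean over the probes of a gene, and -0.10 against untreated OHC-TRECK without spots whose local background was marked as an outlier, a setting added after the data were seen that removes Gjb2 and Gjb6 from that comparison. Of 474 single ratios, 444 moved by less than the spread of spots, and 9 turned sign, each at most 0.10 in size. The cause of these moves was not tested, apart from the removal of probes. Single spots, dim probes such as Prox1 and 1 array per group limit all values.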
